A study of Mus musculus with 30 samples.

Results

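Islets from vehicle-treated mice at 18 weeks were compared with islets from vehicle-treated mice at 6 weeks, over every gene counted. The comparison uses 11 of the 30 libraries of a study of cadmium exposure, chosen by their titles: 5 of vehicle at 6 weeks and 6 of vehicle at 18 weeks. All came from male wild-type mice of the C57BL/6N strain that received vehicle in vivo and no cadmium chloride. The other 19 libraries enter only where named. They are islets treated in vivo with 1 mM CdCl2 for the same times (4 at 6 weeks and 5 at 18 weeks), and islets treated ex vivo for 96 hours with vehicle (5) or 0.5 uM CdCl2 (5). The sources used here do not give the ages of the mice, the route of dosing, the composition of the vehicle or the number of mice behind a library. Nothing in the labels says that libraries of a group came from separate animals, so p-values measure library-to-library spread, part of which may be technical. The labels give 1 protocol for all libraries: islets purified on a Biocoll gradient, RNA extracted with Trizol, and Illumina library preparation without further detail. Weeks of treatment, age, and the day or manner of preparation and sequencing cannot be told apart in this comparison.

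Islets are the endocrine clusters of the pancreas. Beta cells secrete insulin and amylin, alpha cells glucagon, delta cells somatostatin and PP cells pancreatic polypeptide, and purified islets carry along vessels, macrophages, stroma and some acinar cells, which make digestive enzymes. Most messenger RNAs end in a poly(A) tail, and many library protocols enrich for it. Replication-dependent histone messages end instead in a stem-loop, and most small nuclear, nucleolar and RNA polymerase III transcripts carry no tail. Ribosomal protein genes and many other highly expressed genes have left processed pseudogenes, near copies of their messages, across the genome, so that a read from them has several possible origins.

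Genes were therefore separated into 4 classes: RNAs without a poly(A) tail, cytosolic ribosomal protein genes, other genes whose longest annotated transcript is under 1000 bases, and the remaining genes. Total counts were 49564350 to 55504925 at 6 weeks and 41821402 to 51404595 at 18 weeks, except that 18-week libraries 4 and 6 held 14751249 and 9092759. The first principal component separated the times and carried 82.9% of the variance. The islet identity of the samples was plain: Ins2, Ins1, Iapp, Gcg, Chga and Scg2 were among the 10 most abundant genes at both times. Levels below are CPM, counts scaled to a common library size by TMM, and changes are log2 fold changes of 18 over 6 weeks ± SE from edgeR's quasi-likelihood test, with Benjamini-Hochberg adjusted p-values called under 0.05.

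Of 20551 genes tested, 14756 (71.8%) were called, 7376 higher (35.9%) and 7380 lower (35.9%) at 18 weeks. With a change of at least 1 log2 unit, 4444 genes were higher (21.6%) and 2477 lower (12.1%). In 5531 genes (26.9%) every 18-week library lay above every 6-week library, and in 5475 (26.6%) every one lay below. So large a background means that a call alone says little about a gene. The split between higher and lower also rests on the scaling: calls were split evenly with TMM, 58.3% of them were higher when only the remaining genes set the scale (all genes shifted by a median of 0.13), 67.3% when each library was levelled by GC content (0.21, with 70.1% of genes called) and 69.2% when remaining protein-coding genes with under 1% shared sequence set it (0.30). Changes are therefore also described by whether a gene was called in the same direction under all 6 scalings tried, which held for 6972 higher (33.9%) and 3502 lower genes (17.0%).

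**Figure D1:**
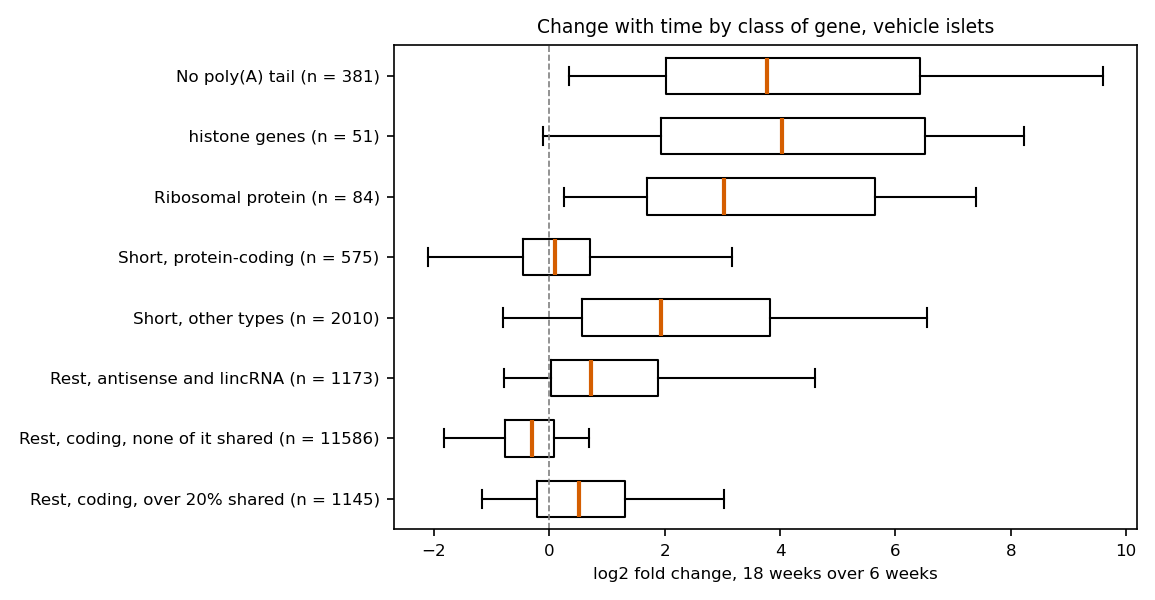
Box plots of the log2 fold change of 18 over 6 weeks by class of gene, with the number tested in brackets. Orange lines are medians, boxes quartiles and whiskers the 5th and 95th percentiles. Genes without a poly(A) tail (median 3.78) and ribosomal protein genes (3.03) lie far to the right of remaining coding genes that share none of their coding sequence with another gene (-0.30).

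RNAs without a poly(A) tail took 0.168% ± 0.0182 (SD, n = 5) of counts at 6 weeks and 8.40% ± 4.40 (SD, n = 6) at 18 weeks, with no overlap (exact two-sided permutation test over 462 arrangements, p = 0.00433, the smallest possible; adjusted over 8 shares, 0.00495). Library 6, the shallowest of the 18-week libraries, held 17.0% and the others 5.21% to 8.79%. The same class held 0.155% of counts in cadmium libraries at 6 weeks, 6.91% in cadmium libraries at 18 weeks, and 0.167% and 0.163% in the vehicle and cadmium cultures, so the step went with the 18-week libraries under both treatments. Of 381 such genes tested, of 3976 annotated, 350 rose and 2 fell, with a median of 3.78 against 0.00 over all genes, and 346 rose under all 6 scalings. Many passed the filter on low counts only through the 18-week libraries; among the 59 with at least 10 counts in every 6-week library, 42 rose and 2 fell, with a median of 1.38, against -0.17 over the 16754 genes of all classes with such counts.

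Rn7sk, the 7SK RNA that holds the elongation factor P-TEFb inactive (chr9:78175303-78175633, minus strand, GRCm38), was among the 10 most abundant genes at 18 weeks. Its annotated transcript ends in a short run of T, shown in capitals in the last 30 bases.
Rn7sk: ggcgctgcatgtggcagtctgcctttcTTT
Rn7sk stood at 1.21, 1.52, 1.47, 1.75 and 1.62 CPM in the 5 libraries at 6 weeks, and at 18 weeks between 18223 and 43077 CPM with a median of 29557 (14.30 ± 0.32, adjusted p 5.2e-14). Rn7sk was thus close to absent from every library at 6 weeks, and alone made up 1.91% to 4.59% of 18-week counts. Gm22513, annotated as a small nuclear RNA, had 0 counts in all 5 libraries at 6 weeks and 7482 to 44321 counts in those at 18 weeks. Rn7s6, annotated among the miscellaneous RNAs, had 0 counts at 6 weeks and 430 to 4778 at 18 weeks. By type, 100 of 107 small nuclear RNAs rose and 0 fell, as did 119 and 2 of 130 small nucleolar RNAs, 14 and 0 of 14 small Cajal body RNAs, and 58 and 0 of 62 miscellaneous RNAs. Of these types 5, 21, 1 and 3 genes had at least 10 counts in every 6-week library, of which 3, 15, 1 and 2 rose.

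Ribosomal RNA did not follow the class evenly. CT010467.1, an annotated rRNA gene (chr17:39846353-39848827), stood at 1583, 1172, 1482, 1495 and 1621 CPM at 6 weeks and at 1385 to 152326 CPM with a median of 36441 at 18 weeks (5.06 ± 0.80, adjusted p 4.3e-05). Library 1 of the 18-week group lay inside the 6-week range, at 0.147% of its counts, the other 5 held 2.34% to 14.1%, and library 6 was the highest. Lars2, the mitochondrial leucyl-tRNA synthetase, is a protein-coding gene of the remaining class that was likewise uneven: 119 to 169 CPM at 6 weeks, and 336, 2590, 25527, 3952, 1823 and 2312 CPM in 18-week libraries 1 to 6 (5.35 ± 0.90, adjusted p 8.0e-05). Where the reads counted for Lars2 come from was not tested, so this value is not shown to be a change of the synthetase message.

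Replication-dependent histone genes rose with the rest of the tail-less class. Of 51 tested, 45 rose and 0 fell. Among the 24 with at least 10 counts in every 6-week library 18 rose and 0 fell, with a median of 1.62. Their stem-loop was searched as GGNNNTTTTCANNNCC on the transcript strand: it was found in 29 of the 51 and in 189 of 54079 annotated genes (0.349%). The 4 histone genes with the motif and the highest levels, chosen after their values were seen, are shown with the match in capitals.
Hist1h1c: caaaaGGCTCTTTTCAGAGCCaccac
Hist1h4d: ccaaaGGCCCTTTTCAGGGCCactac
Hist1h4h: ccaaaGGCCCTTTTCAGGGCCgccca
Hist1h4c: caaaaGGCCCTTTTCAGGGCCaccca
All 4 lie in the histone cluster of chromosome 13, and Hist1h4d and Hist1h4h share their stem-loop letters with Hist1h4c. Their levels moved by very different amounts. Hist1h1c, a linker histone, rose from 88.0 ± 8.38 (SD, n = 5) to 124 ± 20.3 CPM (SD, n = 6), by 0.50 ± 0.11 (adjusted p 6.4e-04). Hist1h4d rose from 0.914 ± 0.115 (SD, n = 5) to 172 ± 35.9 CPM (SD, n = 6), by 7.55 ± 0.18 (adjusted p 7.2e-14). Hist1h4h and Hist1h4c, which encode histone H4 as well, rose by 6.50 ± 0.21 and 5.92 ± 0.16. What part sequence shared with other genes has in these rises was not tested. Hist2h2be, also named after its value was seen, did not pass the test, at 22.3 ± 2.10 (SD, n = 5) and 20.7 ± 3.33 CPM (SD, n = 6). Of the 22 histone genes whose annotated transcript lacks the motif 21 rose, as did 24 of the 29 that hold it. The median change was larger without the motif, 5.62, than with it, 2.86. These medians were not limited to genes with at least 10 counts in every 6-week library. Replacement histones, made outside S phase from polyadenylated messages, had 3 rises and 4 falls among 8 tested, and under all 6 scalings 3 rises and 0 falls. Of those that rose, H2afz (3.79) and H3f3a (3.74) share 33.2% and 14.9% of their transcript sequence with other annotated genes.

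**Figure D2:**
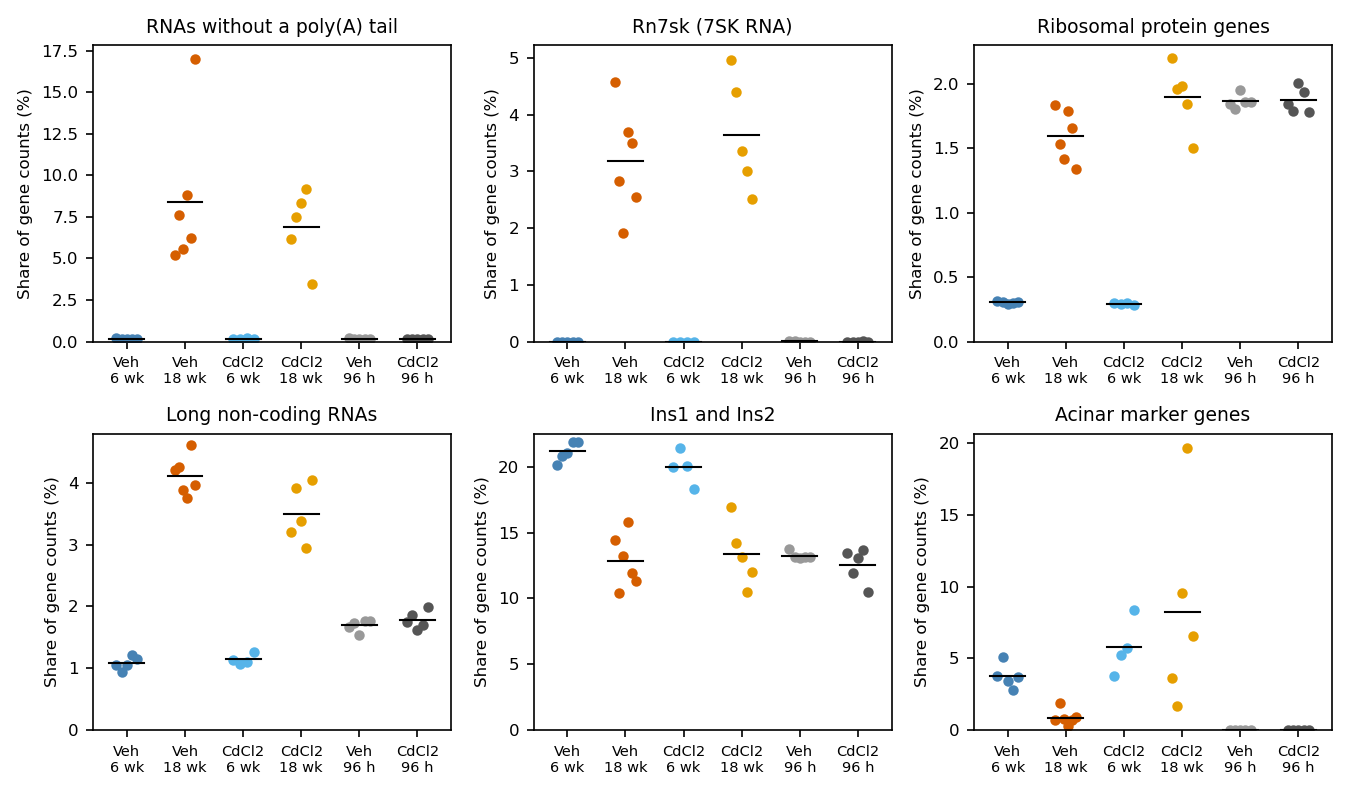
Share of gene counts (percent) held by 6 groups of genes in each of the 30 libraries, by treatment and time; points are libraries and lines group means. Tail-less RNAs and Rn7sk stand apart only in the 18-week groups, whereas ribosomal protein genes are as high in the cultures (1.87%) as at 18 weeks (1.60% in vehicle).

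Ribosomal protein genes, which encode the protein subunits of the cytosolic ribosome, rose as a class but by an amount that differed widely between genes. Of 84 tested, 78 rose, all of them under all 6 scalings, and 1 fell, with a median of 3.03. They held 0.305% ± 0.00878 (SD, n = 5) of counts at 6 weeks and 1.60% ± 0.200 (SD, n = 6) at 18 weeks (exact permutation p = 0.00433, adjusted 0.00495). Unlike tail-less RNAs, their share in the cultured vehicle islets, 1.87%, lay on the 18-week side. Ribosomes hold these proteins in near-equal numbers. Per kilobase of coding sequence the middle 80% of the genes spanned 2.21 to 212 CPM at 6 weeks, a ratio of 95.9, and 72.0 to 807 CPM at 18 weeks, a ratio of 11.2. The levels of the genes were thus more alike at 18 weeks.

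The change followed how much of a gene's coding sequence is also found elsewhere, measured as the share of its 50-base stretches that occur unchanged in a transcript of another annotated gene. With 100% shared the median change was 6.01 (29 genes), with 80% to under 100% it was 3.52 (30 genes), with 20% to 80% it was 1.43 (21 genes), and with more than none and up to 20% it was 0.30 (3 genes). The examples below show, for each gene, 50 bases of coding sequence that other genes hold letter for letter.
Rpl38: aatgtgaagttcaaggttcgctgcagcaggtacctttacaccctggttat
Rpl4: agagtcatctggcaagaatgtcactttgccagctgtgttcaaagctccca
Rps29 (chr12:69157722-69159186), whose coding sequence is 100% shared, stood at 0.220, 0.416, 0.367, 0.254 and 0.210 CPM at 6 weeks and at 226 to 448 CPM, median 278, at 18 weeks (9.99 ± 0.27, adjusted p 2.8e-13). The stretch of Rpl38 (chr11:114668524-114672331) is held by 4 other genes, and this gene stood at 0.296 to 0.526 CPM at 6 weeks and 146 to 230 CPM at 18 weeks (8.91 ± 0.18). At the other end, Rpl4 (chr9:64173375-64178666) shares 245 of its 1211 stretches (20.2%), and stood at 509, 517, 483, 515 and 512 CPM at 6 weeks and 442 to 546 CPM, median 515, at 18 weeks, with overlapping groups (-0.01 ± 0.07, adjusted p 0.89). Rpl8, with 8.69% shared, rose by 0.30 ± 0.09 and Rplp0, with 60.4% shared, by 1.28 ± 0.08. The 5 genes not called were Rpl4, Rps3, Rpl22l1, Rpl36al and Rpl13a, and the last 3 of them share 81.9%, 100% and 97.5% of their coding sequence, so the relation has exceptions. These 5 were named after their values were seen.

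Outside the ribosome the median also rose with shared sequence, except at the top. Among remaining protein-coding genes the median change was -0.30 with none of the coding sequence shared (11586 genes, 1862 rose and 6078 fell), -0.04 with up to 20% (1445), 0.41 with 20% to 80% (805), 1.33 with 80% to under 100% (238) and 1.12 with all of it shared (102 genes, 66 rose and 18 fell). Among short protein-coding genes the medians from none to all shared were -0.01, 0.21, 0.88, 2.08 and 2.45. With at least 10 counts in every 6-week library they were -0.08, 0.19, 0.66, 1.69 and 0.14. The last is the median of 15 genes, of which 6 rose and 4 fell. The same limit gave -0.32, -0.04, 0.39, 1.19 and 0.65 in the remaining class. For 3 named genes of the remaining class, Sumo2, Tpt1 and Gapdh, a stretch of the shared sequence is shown.
Sumo2: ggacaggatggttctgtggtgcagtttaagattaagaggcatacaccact
Tpt1: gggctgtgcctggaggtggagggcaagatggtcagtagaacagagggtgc
Gapdh: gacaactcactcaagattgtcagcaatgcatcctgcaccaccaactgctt
These runs are held by 7, 3 and 83 other annotated genes, of which 7, 3 and 79 are pseudogenes. Sumo2, a ubiquitin-like modifier (chr11:115523102-115536276), stood at 0.661, 0.457, 0.810, 0.613 and 0.884 CPM at 6 weeks and 37.1 to 51.0 CPM, median 40.8, at 18 weeks (5.95 ± 0.14, adjusted p 9.2e-14). Tpt1, the translationally controlled tumour protein (chr14:75845093-75848525), stood at 13.3 to 18.9 and 298 to 411 CPM (4.51 ± 0.12). Gapdh, the glycolytic enzyme often used as a reference gene (chr6:125161715-125166467), stood at 7.35 ± 2.06 CPM (SD, n = 5) at 6 weeks and 115 to 175 CPM, median 152, at 18 weeks, with no overlap (4.33 ± 0.19, adjusted p 6.8e-11). Timm23, of the mitochondrial inner membrane translocase, and Actg1, gamma actin, both with 100% shared, rose by 5.11 ± 0.13 and 4.72 ± 0.26. Whether reads with several possible origins were handled alike at both times is not given in the sources used here and was not tested. Of 931 processed pseudogenes tested 740 rose and 55 fell, but few were well counted at 6 weeks. Among the 215 with at least 10 counts in every 6-week library 84 rose and 51 fell, with a median of 0.20.

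**Figure D3:**
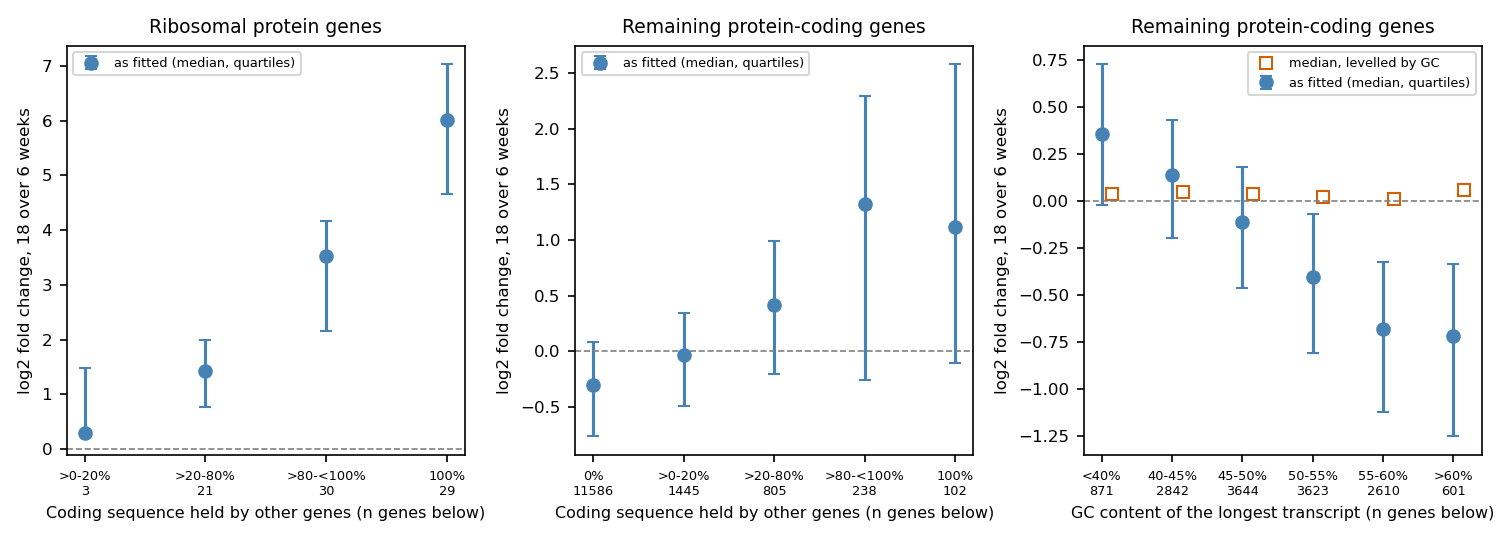
Median log2 fold change of 18 over 6 weeks with quartiles (bars) for genes grouped by the share of their coding sequence found in other genes (left and centre) and by GC content (right); the number of genes stands under each group. The median rises from left to right in ribosomal protein genes, reaching 6.01, and falls with GC content from 0.35 to -0.72; open squares give the medians after each library was levelled by GC content, which removes the trend by construction.

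Short genes took a smaller share of counts at 18 weeks. Their share went from 19.8% ± 0.605 (SD, n = 5) to 13.1% ± 1.25 (SD, n = 6; exact permutation p = 0.00433, adjusted 0.00495). Ins2 is a short gene, as are some acinar enzymes. Without the insulin and acinar genes in class and total the share was higher at 18 weeks, 5.85% ± 0.534 (SD, n = 6) against 4.39% ± 0.202 (SD, n = 5; exact permutation p = 0.00433). Of 2585 short genes tested 1684 rose and 275 fell, but fewer were well counted at 6 weeks. Among the 1215 with at least 10 counts in every 6-week library 472 rose and 265 fell, with a median of 0.23. The 485 of these that code for protein had 148 rises, 156 falls and a median of 0.01, and the 730 others had 324 rises, 109 falls and a median of 0.44. Of 114 annotated microRNA genes tested 107 rose and 1 fell, of which 13 had such counts at 6 weeks, with 9 rises and 1 fall.

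Whether the counts of annotated microRNA genes come from microRNAs was not tested. These genes held a mean of 0.874% of counts at 18 weeks, and Gm23935 alone 0.691%. The highest of these entries form a family of near-identical transcripts with no mature form printed here. Their whole annotated sequences are given because their counts cannot be assigned to 1 gene; the capital marks the base at which Gm24187 differs from the others of its length.
Gm23935: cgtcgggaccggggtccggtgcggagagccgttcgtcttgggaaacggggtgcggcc
Gm24270: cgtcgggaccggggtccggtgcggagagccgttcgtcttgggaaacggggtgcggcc
Gm24187: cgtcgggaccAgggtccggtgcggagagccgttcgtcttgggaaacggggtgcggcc
Gm25911: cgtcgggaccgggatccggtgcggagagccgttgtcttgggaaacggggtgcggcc
They lie on 4 chromosomes, at chr16:11144125-11144181, chr9:56223715-56223771, chr13:9834469-9834525 and chr1:167340369-167340424. Gm23935 stood at 2.26, 1.89, 1.10, 1.29 and 1.03 CPM at 6 weeks and 1441 to 19959 CPM, median 4676, at 18 weeks (12.15 ± 0.81). Gm24270 had 5 counts in all at 6 weeks and 4509 to 25199 in each 18-week library. Gm24187 and Gm25911 had 0 counts in every 6-week library and 1634 to 13140 and 288 to 2021 counts at 18 weeks. These entries were chosen among the highest or most risen short genes, so their common rise follows from the choice. Library 6 was the highest in Gm23935, as it was in CT010467.1. Gm10736, a processed pseudogene of 78 bases (chr13:111593534-111593611), shows the extreme of shared sequence: it is letter for letter a coding sequence of the ribosomal protein gene Rpl41.
Gm10736: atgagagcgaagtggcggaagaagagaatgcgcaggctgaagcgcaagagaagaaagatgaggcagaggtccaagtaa
The measure of shared sequence takes the longest annotated coding sequence of a gene, which for Rpl41 is another, with 4.35% shared, so the measure misses this copy. Rpl41, named after its value was seen, rose by 2.66 ± 0.13, against 0.17 for Rps3 and 0.30 for Rpl8, the other genes with up to 20% shared. Gm10736 had 0 counts in every 6-week library and 138 to 1077 at 18 weeks.

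Long non-coding RNAs rose from 1.08% ± 0.101 (SD, n = 5) to 4.11% ± 0.308 (SD, n = 6) of counts (exact permutation p = 0.00433, adjusted 0.00495). Malat1, a nuclear RNA without a conventional poly(A) tail, gave much of this: 1325, 1223, 1437, 1960 and 1876 CPM at 6 weeks and 14102 to 21643 CPM, median 18591, at 18 weeks (3.55 ± 0.17, adjusted p 2.2e-10). Kcnq1ot1, the antisense RNA of an imprinted domain, rose by 3.83 ± 0.23. Neat1, the RNA of paraspeckles, did not pass the test, at 276 to 419 CPM at 6 weeks and 203 to 906 CPM at 18 weeks, and Peg13, another imprinted RNA, fell by 1.30 ± 0.07. Among genes with at least 10 counts in every 6-week library, 261 of 574 antisense genes rose and 76 fell. The same counts were 321 and 33 of 485 TEC entries, an annotation class of unverified transcripts, and 30 and 6 of 57 sense-intronic transcripts. Rtl1, an imprinted retrotransposon-derived gene that lies opposite an antisense transcript, rose by 4.67 ± 0.13, from 1.93 to 3.25 CPM at 6 weeks to 57.1 to 65.6 CPM. Whether counting used strand is not given in the sources used here, so reads of Rtl1 and of its antisense partner cannot be told apart.

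The remaining 17488 genes were split between 5256 that rose and 7100 that fell, with a median of -0.10. Of their 14191 protein-coding members 2992 rose (21.1%) and 6858 fell (48.3%), with a median of -0.24. Both medians turn with the scaling, to 0.20 and 0.06 when genes with under 1% shared sequence set it. The change followed GC content. From under 40% to over 60% GC in the longest transcript, the medians were 0.35, 0.14, -0.11, -0.40, -0.68 and -0.72. Under all 6 scalings 2669 of these coding genes rose (18.8%) and 3244 fell (22.9%), and the gene groups below are described by such counts as well.

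Among the hormone genes of the islet, 1 of 8 rose and 6 fell, and 3 fell under all 6 scalings. Ins2 (chr7:142678656-142743381) stood at 145566, 157219, 154592, 166363 and 168581 CPM at 6 weeks and at 56370 to 97091 CPM, median 75328, at 18 weeks, below the earlier libraries in 6 of 6 (-1.08 ± 0.15, adjusted p 1.1e-05; -0.58 levelled by GC content). Ins1 (chr19:52264297-52265476), the other insulin gene of rodents, changed less, from 59911 to 65300 CPM to 38423 to 61921 CPM with overlapping groups (-0.36 ± 0.13, adjusted p 0.022), and was not called under every scaling, nor without 18-week library 2, 5 or 6 (adjusted p 0.066, 0.068 and 0.058). Together they held 21.2% ± 0.753 (SD, n = 5) and 12.9% ± 2.04 (SD, n = 6) of counts (exact permutation p = 0.00433, adjusted 0.00495). The share in the cultured vehicle libraries was 13.3%, inside the 18-week range of 10.4% to 15.8%. Tail-less RNAs were as low there as at 6 weeks, but those islets had also been kept in culture. What part the tail-less counts have in the lower insulin share at 18 weeks was not tested. Gcg, the glucagon gene of alpha cells (chr2:62474530-62483650), stood at 17914, 16363, 15403, 16927 and 17112 CPM at 6 weeks and 6806 to 12501 CPM, median 10011, at 18 weeks (-0.79 ± 0.14, adjusted p 1.8e-04; -0.78 levelled by GC content). Iapp, the amylin gene, was the 1 hormone gene called higher, at 18619 to 20534 and 21114 to 33417 CPM (0.37 ± 0.12, adjusted p 0.013), though not under every scaling. Sst (-0.66 ± 0.12) and Ppy (-0.93 ± 0.19) were called lower, but levelled by GC content they stood at -0.01 and -0.21. Ghrl fell by 1.24 ± 0.25 from at most 5.84 CPM, and Pyy did not pass the test. In bulk islets, fewer cells of a type and less RNA per cell cannot be told apart.

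**Figure D4:**
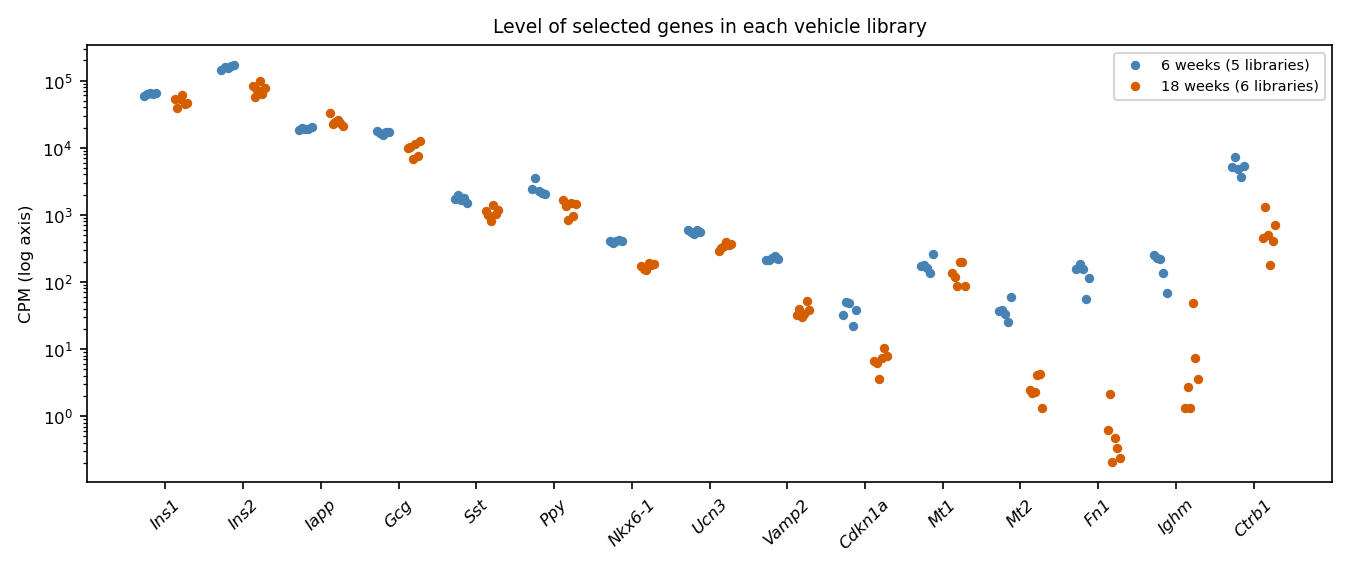
CPM on a log axis of 15 genes in each vehicle library, 5 at 6 weeks (blue) and 6 at 18 weeks (orange). Ins2, Gcg, Nkx6-1, Ucn3, Vamp2, Cdkn1a, Mt2, Fn1, Ighm and Ctrb1 lie lower and Iapp higher at 18 weeks without overlap, whereas Ins1 and Mt1 overlap. Over all genes tested, 26.6% lay lower and 26.9% higher without overlap.

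Beta cell identity genes were mixed. Of 28 tested 3 rose and 13 fell, 3 and 7 under all 6 scalings, and the median of -0.28 turned to 0.03 under the scaling by genes with little shared sequence. Their summed level overlapped, at 11444 to 13115 CPM (on total counts) at 6 weeks and 11192 to 14958 at 18 weeks. Homeodomain and bHLH factors were among the lower genes. Nkx6-1 stood at 401, 384, 411, 415 and 411 CPM at 6 weeks and 148 to 190 CPM, median 176, at 18 weeks (-1.23 ± 0.07, adjusted p 2.0e-09; -0.47 levelled by GC content). Nkx2-2 fell by 1.52 ± 0.09 and Neurod1 by 0.78 ± 0.07, both also when levelled (-0.88 and -0.83). Ucn3, the peptide of mature beta cells, stood at 521 to 602 and 291 to 390 CPM (-0.72 ± 0.08, adjusted p 1.5e-06). Pdx1, called lower at -0.55 ± 0.06, and Insm1, at -1.04 ± 0.09, lost the call when levelled by GC content, where Pdx1 stood at 0.084 and Insm1 at -0.25. Mafa, the factor of mature beta cells, did not pass the test at 198 to 339 and 237 to 377 CPM (0.04 ± 0.14), and neither did Slc2a2, the glucose transporter (0.09 ± 0.13), Glp1r, the incretin receptor (0.07 ± 0.11), or G6pc2, a glucose phosphatase of beta cells (-0.33 ± 0.17), though G6pc2 passed without 6-week library 1 (-0.43) or 18-week library 1 (-0.45). Ero1lb, an oxidase that helps proinsulin fold, rose by 0.52 ± 0.10 and Robo2, a cell-contact receptor, by 0.41 ± 0.08 under all 6 scalings; Ero1lb shares 40.7% of its coding sequence with other genes and Robo2 none.

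Genes of insulin granule release leaned lower more than the identity genes did, though that difference was not tested. Of 25 tested 2 rose and 18 fell, 2 and 11 under all 6 scalings, with a median of -0.59 that ranged to -0.12. Vamp2, the vesicle SNARE of granule fusion (chr11:69088490-69092384), was the largest fall: 212, 210, 229, 241 and 223 CPM at 6 weeks and at most 52.5 CPM, median 35.3, at 18 weeks (-2.56 ± 0.12, adjusted p 1.9e-10; -2.09 levelled by GC content). Rims2, an active-zone scaffold, went the other way, from 68.1 to 73.6 CPM to 94.7 to 116 CPM (0.58 ± 0.06), under all 6 scalings. Abcc8, the sulfonylurea receptor, was called lower at -0.68 ± 0.10 but stood at 0.017 levelled by GC content. Of 15 genes of hormone processing and granins 2 rose and 10 fell, 1 and 5 under all 6 scalings. Ptprn, a granule membrane phosphatase-like protein, stood at 613, 598, 649, 659 and 667 CPM at 6 weeks and 130 to 194 CPM, median 169, at 18 weeks (-1.94 ± 0.10, adjusted p 2.7e-10; -1.18 levelled). Chga, chromogranin A, stood at -0.59 ± 0.10 and 0.15 levelled, and Pcsk1, a prohormone convertase, stood at 0.24 ± 0.10, called but not under every scaling or without 18-week library 1 or 6-week library 1, 2 or 3 (0.21 to 0.23).

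Among alpha cell markers 1 of 12 rose and 6 fell, 1 and 3 under all 6 scalings. Of 10 delta and PP cell markers 1 rose and 6 fell, and 1 fell under all 6 scalings. Genes that are normally silent in beta cells, or return when their identity is lost, fell in 14 of 16 and rose in 1, with 9 and 1 under all 6 scalings and a median of -1.0; their summed level was 67.3 to 135 CPM (on total counts) at 6 weeks and 45.7 to 66.9 at 18 weeks, low at both times.

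Acinar transcripts were much lower at 18 weeks. Of 37 acinar markers 35 fell and 0 rose, 31 under all 6 scalings, with a median of -2.01, and they held 3.75% ± 0.854 (SD, n = 5) and 0.866% ± 0.535 (SD, n = 6) of counts (exact permutation p = 0.00433, adjusted 0.00495). Ctrb1, chymotrypsinogen (chr8:111686519-111691010), stood at 5079, 7234, 4755, 3661 and 5383 CPM at 6 weeks and 178 to 1292 CPM, median 474, at 18 weeks (-3.15 ± 0.37, adjusted p 2.5e-06). Pdia2, a pancreatic disulfide isomerase, fell by 5.05 ± 0.28 and Pla2g1b, the secreted phospholipase, by 3.69 ± 0.39. Library 2 was the highest of the 18-week libraries in Ctrb1 and Pla2g1b. In the cadmium libraries the median of the same markers was 0.66, with 1 of 37 called higher and 1 lower. Their share of counts there ran from 3.77% to 8.34% at 6 weeks and from 1.65% to 19.7% at 18 weeks. The test of the difference between the 2 time effects, given below, called 0 genes by edgeR and 355 by DESeq2. Of 15 ductal markers in the vehicle libraries 10 fell and 1 rose, 9 and 1 under all 6 scalings. No acinar or ductal marker was at 0 at either time, so these cells' transcripts were present in both groups. What part the acinar difference has in the endocrine values was not tested; with acinar, Reg and insulin genes left out of the scaling, 14728 genes were called in place of 14756.

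Stromal and immune markers were mostly lower at 18 weeks. Of 28 stellate and fibroblast markers 27 fell and 0 rose, 25 under all 6 scalings, with a median of -1.91, and all 28 share at most 20% of their coding sequence with other genes. Their summed level was 896 to 1409 CPM (on total counts) at 6 weeks and 475 to 636 at 18 weeks. Fn1, fibronectin (chr1:71585520-71653200), stood at 158, 185, 155, 54.9 and 115 CPM at 6 weeks and 0.205 to 2.13 CPM, median 0.406, at 18 weeks (-7.39 ± 0.46, adjusted p 3.2e-09; -6.87 levelled by GC content). Col1a1, of type I collagen, stood at 29.7, 30.2, 31.2, 11.9 and 13.4 CPM and at 0.228 to 3.18 CPM, median 0.845 (-4.21 ± 0.51, adjusted p 3.4e-06). Libraries 4 and 5 of the 6-week group were the lowest of that group in both genes, and still above every 18-week library.

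Of 23 macrophage and MHC class II markers 22 fell and 0 rose, 17 under all 6 scalings, with a median of -1.36 and summed levels of 548 to 1054 and 302 to 369 CPM (on total counts). Cd74, the invariant chain of MHC class II, stood at 258, 240, 203, 153 and 182 CPM at 6 weeks and 41.4 to 59.8 CPM, median 47.2, at 18 weeks (-2.11 ± 0.13, adjusted p 2.4e-09). Mrc1, a scavenger receptor of tissue macrophages, stood at 23.7, 27.1, 24.1, 4.23 and 4.57 CPM and 1.25 to 3.61 CPM (-3.01 ± 0.49), so 6-week libraries 4 and 5 lay close to the 18-week group. Of 14 lymphocyte markers 11 fell and 0 rose, 7 under all 6 scalings. Of 37 immunoglobulin segments tested, of 245 annotated, 34 fell and 0 rose, with a median of -4.61. The filter on low counts could pass a segment through the 6-week libraries alone, and 30 had at least 10 counts in each of those. These counts therefore cannot check the falls, since they select segments that were high at 6 weeks. Ighm, the heavy chain of IgM, stood at 249, 230, 217, 137 and 68.6 CPM at 6 weeks and 1.32, 2.73, 1.32, 47.8, 7.47 and 3.58 CPM at 18 weeks (-4.24 ± 0.80, adjusted p 2.2e-04), with library 4 far above its group. Igkc, the kappa light chain, was likewise highest in that library (-4.47 ± 0.91). Igkv14-126 had 1561 counts at 6 weeks and 0 in the 18-week group, and Ighv7-3 had 1808 and 1. In the cadmium libraries the median of the 26 segments tested was 0.70 and 0 were called.

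Inflammatory genes were lower as well: of 19 members of the NF-kB list 14 fell and 0 rose, 10 under all 6 scalings. Saa3, an acute-phase protein of macrophages and mesothelium (chr7:46711998-46715700), had 158 to 2356 counts in each 6-week library and 1 count in the 6 libraries at 18 weeks together. The 3 mesothelial markers tested all fell, with a median of -2.26, and 9 of 10 Schwann and neural markers fell, 5 under all 6 scalings. Endothelial markers moved less, with 13 of 19 lower, 1 higher and a median of -0.53. Within them Cdh5, the junctional cadherin, fell by 1.53 ± 0.12 and Eng, endoglin, by 1.81 ± 0.13. Kdr, the VEGF receptor of islet capillaries, did not pass the test at 155 to 179 and 125 to 173 CPM, and Esm1, a secreted proteoglycan of vessels, stood at 0.28 ± 0.10 with overlapping groups, called except without 6-week library 3 (adjusted p 0.053). The vessel genes thus did not fall together. Erythroid genes rose in 3 of 5. Alas2, the haem synthesis enzyme, stood at 0.737 to 1.41 and 3.72 to 5.37 CPM (2.03 ± 0.19). Hbb-bs, a beta globin, stood at 5.96 to 13.2 and 16.1 to 88.6 CPM, highest in library 4 (1.69 ± 0.41, and 1.11 without that library). Of the 5 genes 4, Hbb-bs among them, share over 20% of their coding sequence with other genes, and 2 of these rose.

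Genes tied to beta cell age and senescence gave no uniform picture. Of 28 tested 2 rose and 16 fell, 2 and 9 under all 6 scalings, with a median of -0.43. The falls made up 57.1% and 32.1%, against 48.3% and 22.9% of remaining coding genes. Cdkn2a, the p16 gene that rises in ageing islets, was near 0 at both times and did not pass the test, at 0.291 to 0.459 CPM (14 to 25 counts a library) and 0.299 to 0.953 CPM (5 to 22 counts). Ezh2, which represses it, did not pass the test either, at 5.65 to 6.40 and 4.86 to 6.60 CPM (-0.16 ± 0.10). Cdkn1a, the p21 gene, stood at 31.9, 50.1, 47.9, 22.4 and 38.0 CPM at 6 weeks and 3.58 to 10.4 CPM, median 6.98, at 18 weeks (-2.46 ± 0.24, adjusted p 3.4e-07; -1.91 levelled by GC content). Trp53 fell by 1.52 ± 0.08, while among 18 p53 targets 1 rose and 7 fell (38.9%, against 48.3% of remaining coding genes). Of 34 cell cycle genes 4 rose and 9 fell (26.5%, against 48.3% of remaining coding genes). Under all 6 scalings 0 fell, against 22.9% of those genes. Mki67 (-0.35 ± 0.21) and Top2a (0.26 ± 0.24), markers of dividing cells, did not pass the test, though Mki67 did without 18-week library 1 (-0.50). Pcna rose by 1.14 ± 0.13 and Ccnb1 by 2.06 ± 0.40; they share 63.4% and 82.6% of their coding sequence with other genes, and of the 31 cell cycle genes with at most 20% shared 1 rose and 9 fell.

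Metallothioneins, which bind zinc and cadmium, differed from each other. Mt2 (chr8:94172664-94173568) stood at 37.1, 38.8, 33.4, 25.5 and 60.6 CPM at 6 weeks and 1.31 to 4.24 CPM, median 2.39, at 18 weeks (-3.78 ± 0.25, adjusted p 5.2e-09; -3.17 levelled by GC content). Mt1, its neighbour, stood at 174, 180, 163, 138 and 264 CPM and 86.9 to 199 CPM, with overlapping groups (-0.42 ± 0.22, adjusted p 0.10), and was called without 18-week library 4 (-0.53) or 5 (-0.52). Immediate early genes varied between the 18-week libraries: Egr1 stood at 203 to 430 CPM at 6 weeks and 7.50 to 232 CPM at 18 weeks (-2.31 ± 0.66, adjusted p 0.0059), and Fos at 448 to 886 and 14.2 to 1086 CPM, not called (-1.21 ± 0.79) except without 18-week library 5, which was the highest in both (-2.24).

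In several lists, but not in all, members with shared sequence had the higher medians. Among lists that went the other way were the macrophage and MHC class II markers. Their median was -3.74 with over 20% of the coding sequence shared (3 genes) and -1.25 with less (20 genes). Erythroid markers stood at 1.42 (4 genes) and 2.03 (1 gene). Of 19 heat shock genes 9 rose and 6 fell, 8 and 2 under all 6 scalings, with a median of 0.69 that went to 0.13 without 18-week library 5, but the 8 members with over 20% of the coding sequence shared had 6 rises, 0 falls and a median of 1.81, and the other 11 had 3 rises, 6 falls (2 and 2 under all 6 scalings) and a median of -0.40. Hsp90aa1, the inducible Hsp90, with 85.4% shared, stood at 75.2 to 112 and 522 to 1174 CPM (3.18 ± 0.20), and Hspa8, the constitutive Hsc70, with 90.7% shared, at 158 to 228 and 932 to 1686 CPM (2.70 ± 0.18). Hsp90ab1, with 5.22% shared, stood at 1050 to 1363 and 583 to 1034 CPM (-0.59 ± 0.15, adjusted p 0.0021). Of 74 nuclear genes of oxidative phosphorylation 38 rose and 15 fell, 36 and 4 under all 6 scalings, with a median of 0.23. The 20 with over 20% shared had a median of 1.76. The other 54 had a median of 0.08, with 23 rises and 13 falls, and with 21 and 2 under all 6 scalings, so rises outnumbered falls among them too. Atp5g2, a subunit c gene of ATP synthase, and Cox7c, of cytochrome oxidase, both 100% shared, rose by 5.40 ± 0.12 and 4.94 ± 0.14, whereas Ndufb5, of complex I, with none shared, fell by 0.83 ± 0.08. Proteasome genes gave 13 rises and 7 falls of 31 (12 and 2 under all 6 scalings), and 6 and 6 of the 23 with at most 20% shared (5 and 1). Over all protein-coding genes tested, the medians were -0.27 with at most 20% shared (13476 genes) and 0.64 with more (1404).

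Of 26 genes of the unfolded protein response 10 rose and 7 fell, 10 and 3 under all 6 scalings. The 23 with at most 20% shared had 8 rises and 7 falls, 8 and 3 under all 6 scalings. Pdia4, a disulfide isomerase of the endoplasmic reticulum, stood at 203 to 216 and 280 to 408 CPM (0.68 ± 0.08). Ern1, the sensor IRE1, fell by 0.89 ± 0.07 and Syvn1, a ubiquitin ligase of ER-associated degradation, by 1.76 ± 0.14, from 110 to 126 CPM to 27.2 to 51.0 CPM.

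**Figure D5:**
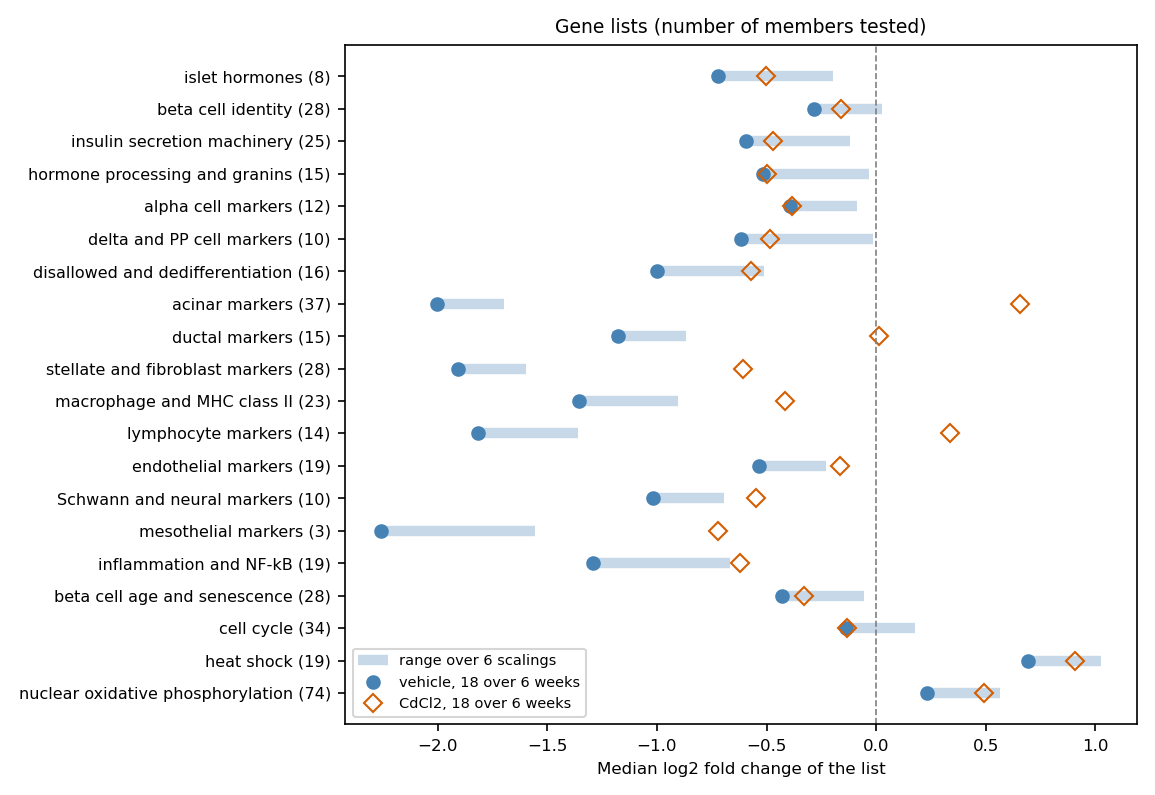
Median log2 fold change of 18 over 6 weeks for 20 gene lists, with the number of members tested in brackets: filled points are vehicle islets, pale bars the range of the vehicle median over 6 scalings, and open diamonds cadmium-treated islets. The acinar median lies at -2.01 in vehicle and 0.66 in cadmium libraries, while hormone and secretion lists lie close together in both.

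The same times were then compared in the cadmium-treated islets, 5 libraries at 18 weeks against 4 at 6 weeks, which share no library with the vehicle groups. Of 20306 genes tested 11929 (58.7%) were called, 6549 higher (32.3%) and 5380 lower (26.5%). Over the 19888 genes tested in both, log2 fold changes had a Pearson r of 0.939, a description across genes, which are not independent. Both called 10564 genes, 74.3% of the vehicle calls and 90.1% of the cadmium calls, and 10554 of these had the same sign. The classes had cadmium medians of 4.17 for tail-less RNAs, 3.66 for ribosomal protein genes, 1.08 for short genes and -0.02 for the remaining genes. These medians were not limited to genes with at least 10 counts in every 6-week library. In vehicle that limit took the median of tail-less RNAs from 3.78 to 1.38, and that of short genes from 1.34 to 0.23. Of single genes named above, the change in the cadmium libraries was 14.59 for Rn7sk, 10.12 for Rps29, -0.80 for Ins2, -0.98 for Gcg, -1.46 for Nkx6-1, -2.74 for Vamp2, -1.87 for Ptprn, -2.16 for Cdkn1a and -2.86 for Mt2. Ctrb1 (-0.13), Mrc1 (-0.14), Ighm (0.03) and Fn1 (-3.98) were farther from their vehicle values of -3.15, -3.01, -4.24 and -7.39. A test of the difference between the 2 time effects called 0 of 22306 genes by edgeR's quasi-likelihood fit of the 20 in vivo libraries, with 3740 at an unadjusted p under 0.05 and a lowest adjusted p of 0.155. DESeq2 called 355 for the same difference, and a fit of all 30 libraries 382.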

How the data were processed

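The authors deposited raw read counts per gene, one file per library, with no normalization applied (whole numbers with differing totals). Per the submitters' processing notes, cutadapt 1.13, STAR, HTSeq 0.6.1p1, DESeq2 and the mm10 build were used. The strand setting, the treatment of reads with several origins and the annotation release were not stated in these sources. Of 54232 gene IDs, 54165 matched GENCODE M21 (GRCm38), which gave names, types, lengths and sequences. Genes of the 2 vehicle groups were filtered with filterByExpr (minimum count 10, minimum total 15), scaled by TMM and tested with edgeR 4.0.16 (quasi-likelihood, 5 against 6 libraries, no covariates) in R 4.3.3, with Benjamini-Hochberg adjustment. Cadmium groups and the difference of the time effects were fitted likewise. An exact two-sided permutation test (scipy 1.17.1) was used for shares. Alternatives were DESeq2 1.42.0, other scalings, filters and thinning, a replicate block, and leaving out libraries. GC levelling and scaling by unshared genes were added after seeing the data. Genes at 0 counts in a group are given as counts, with no fold change. Named genes were the highest and most changed of each class, the most changed and highest of each list, and a fixed set of islet genes, with the exceptions stated. The members and lists were chosen with earlier results of these data known. The scripts were tested on simulated data. A few genes and sequences are not reported here.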

Additional observations from a re-analysis of the deposited data

Results flagged for a closer look

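Within groups of 5 or 6 libraries, single libraries stood far from the others by Dixon's gap test at the 95% level, which chance alone gives in about 1 of 20 groups. Library 6 of the 18-week group, the shallowest, was high in the share of tail-less RNAs (17.0%), the CT010467.1 share (14.1%, 152326 CPM), Gm23935 (19959 CPM) and Cdkn2a (0.953 CPM). Library 4 of the same group, the other shallow library, was high in the share of immunoglobulin segments (0.0133%), Ighm (47.8 CPM), Igkc (25.8 CPM) and Hbb-bs (88.6 CPM). Library 1 was high in Iapp (33417 CPM), G6pc2 (4114 CPM), Ezh2 (6.60 CPM), Ccnb1 (2.31 CPM) and Cox7c (91.2 CPM). Library 2 was high in Fn1 (2.13 CPM), and library 3 was high in Lars2 (25527 CPM) and low in Tpt1 (298 CPM). Library 5 held the single count of Saa3 (0.0187 CPM) and the single count of Ighv7-3 (0.0187 CPM). At 6 weeks, library 2 was high in Ppy (3575 CPM) and Ghrl (5.84 CPM) and low in the CT010467.1 share (0.110%) and Atp5g2 (0.644 CPM). Library 3 was low in Rpl4 (483 CPM), library 4 high in Ccnb1 (0.718 CPM) and library 5 high in Hsp90aa1 (112 CPM).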

How the results depend on the processing

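The count of genes called was 14756 and lay between 9987 (counts thinned to the lowest total) and 18909 (no filter on low counts), with 17781 by DESeq2. Genes called with at least 1 log2 unit numbered 11465 without a filter, 3591 with a minimum count of 50 and 3375 after thinning. Called genes without a poly(A) tail numbered 922, 122 and 112 under the same settings and 780 by DESeq2. Called short genes numbered 4179, 693 and 580, 3525 by DESeq2 and 921 with a limit of 600 bases. Fewer or more genes were tested in these settings by construction. The difference in the share of short genes turned to 1.45 percentage points without insulin and acinar genes. Levelled by GC content, the medians by GC bin were 0.038 (under 40% GC), 0.035 (45% to 50%), 0.021, 0.0065 and 0.057 (over 60%). At the same setting Rpl4 stood at 0.17 (0.29 when unshared genes set the scale), Pyy at 0.53, Pdx1 at 0.084, Abcc8 at 0.017 and Chga at 0.15; the cause was not tested. The difference between the time effects gave 382 genes in a fit of all 30 libraries and 355 by DESeq2.

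Leaving out 1 library at a time gave 13683 to 15049 genes called and 6076 to 7616 with at least 1 log2 unit. By class this gave 261 to 397 tail-less, 79 to 82 ribosomal protein, 1618 to 2181 short and 11706 to 12381 remaining genes. Share differences lay at 6.52 to 8.87 percentage points for tail-less RNAs, 1.24 to 1.34 for ribosomal protein genes, -7.06 to -6.50 for short genes, -8.90 to -7.81 for insulin and -3.14 to -2.55 for acinar markers. Without both shallow 18-week libraries 14545 genes were called.

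With the replicate number as a block, 14100 genes were called. The labels give libraries only a shared number, and deviations of same-numbered libraries correlated at -0.15 to 0.10, with 1 of 5 correlating best with its own number. Under this block Ins1 (adjusted p 0.052) and Pcsk1 (0.078) were not called by edgeR.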
